A study of Sus scrofa with 8 samples.

Results

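Ammonia handling by the liver was examined through 10 genes: the 5 enzymes of the urea cycle (CPS1, OTC, ASS1, ASL and ARG1), the mitochondrial arginase ARG2, the enzyme that makes the activator of CPS1 (NAGS), and the enzymes that release ammonia from glutamine or glutamate or bind it to them (GLS2, GLUL and GLUD1). They were taken by gene symbol from the table of hepatic transcripts, where all 10 were found once among 18103 listed genes, of which 17778 were known genes and 325 were new transcripts. In steatosis, the transcripts of ASS1, ASL and ARG2 fell and those of GLUD1 and GLUL rose, whereas CPS1, OTC, ARG1, NAGS and GLS2 did not pass the main test. The calls were not equally firm. That of GLUL was lost in 9 of 17 alternative runs, that of ASL in 3 and that of ASS1 in 1. CPS1 passed after another scaling of the libraries or without 1 initial library, and NAGS passed without a different initial library.

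RNAseq was carried out on liver of male Landrace x Large White pigs, in 4 libraries of the initial state and 4 of steatosis, each library being an RNA pool of 2 pigs. The initial state was the liver of 4 months old pigs on the standard diet, biopsied under anaesthesia. Steatosis was the liver of the same animals at 6 months of age, after 2 months on a steatotic diet, taken after euthanasia. That diet was rich in saturated fat, fructose, cholesterol and cholate, poor in choline and methionine, and held less protein than the standard diet, and the pigs were fasted overnight before both samplings. Since no pigs were kept on the standard diet until the later age, diet, age and way of sampling cannot be told apart in any comparison below, and each SD is the spread between pools, not between pigs.

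The urea cycle turns toxic ammonia and the nitrogen of aspartate into urea for excretion. Its first steps, catalysed by CPS1 and OTC, lie in the mitochondria and its later steps, catalysed by ASS1, ASL and ARG1, in the cytosol of hepatocytes, with the highest activity around the portal vein. Hepatocytes around the portal vein also release ammonia from glutamine with GLS2, and the last hepatocytes before the central vein bind the ammonia that escaped to glutamate with GLUL. In bulk liver RNA, fewer cells of a type and less RNA per cell cannot be told apart.

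Values were FPKM, fragments scaled by transcript length and by the mapped fragments of the library, so that levels of different genes can be compared per length. The sum over all genes lay between 511863 and 545731 FPKM per library, and 15934 to 16588 genes were above 0. An estimate of relative depth from the steps in low values gave 100% for pool 4 of the initial state and the same 94.5% for every other library. It compared rounded values within a narrow window, so it could not resolve differences in depth. Albumin (ALB), the defining product of hepatocytes, was the most abundant transcript in all 8 libraries. Pool 1 of the initial state stood apart: its summed skeletal muscle markers reached 2992 FPKM and its summed stomach markers 2268 FPKM. Muscle markers summed to 1.17, 9.07 and 22.6 FPKM in initial pools 2, 3 and 4, against 0.37 to 1.35 in steatosis. Stomach markers summed to 22.4, 44.8 and 5.89 FPKM in those initial pools, against 6 to 6.59 in steatosis. Leaving out pool 1 therefore did not remove all such transcripts from the initial state. The fat cell hormone ADIPOQ was at 27.9 FPKM in it, against 0.6 FPKM or less in the other 7 libraries. All 11 muscle markers found, led by ACTA1 at 1439 FPKM, and 8 of 11 stomach markers, led by PGA5 at 739 FPKM, were over 10 times higher in it than in any other library, while 3 muscle and 5 stomach markers were at 0 in every steatosis pool. That pool was also the highest of its group for 8 of the 10 genes, the exceptions being OTC and GLUD1, so results are given with and without it where that matters, and the part of these transcripts in the results was not tested.

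At an adjusted p under 0.05 (limma on log2(FPKM + 0.1), Benjamini-Hochberg over 13175 genes), 2 of the 10 genes were higher and 3 lower in steatosis. Over all genes tested, 26.7% were higher and 2.28% lower, 29% in all. The groups of pools did not overlap for 1 gene that was higher and 3 that were lower, beside 29.6% and 2.53% of all genes, 32.1% in all. Of the 10 log2 fold changes 7 were below 0, beside 21.3% of all genes, and their median was -0.17, beside 0.25 over all genes. Without pool 1 of the initial state, ARG1 (0.19) and GLS2 (0.02) turned above 0, while the median over all genes stayed at 0.25. The share of all genes below 0 was not computed for that run. The study's own limits for differential expression ask for a log2 fold change beyond 1 at an adjusted p under 0.01, and of the 10 genes only ARG2 met them, as lower. No gene of the 10 was called higher by those limits, with limma's unadjusted p under 0.01 in place of the adjusted p as well, beside 6.01% of all genes higher and 0.334% lower, 6.35% in all. Leaving out pool 4 of the initial state left 1 of the 3 lower genes called, ARG2, and leaving out pool 1 of that group gave 3 higher ones, with NAGS added. When libraries were brought to a common median ratio, the median of all genes moved from 0.25 to -0.01 on the log2 scale and the shares of all genes became 11.6% higher and 9.74% lower. With a common upper quartile they were 13.1% and 7.28%, with a median of 0.04. Where a named gene with a mean of at least 1 FPKM in a group loses its call relative to the median ratio, that value is given beside it. Gains of a call were looked up only for the 10 genes.

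**Figure D1:**
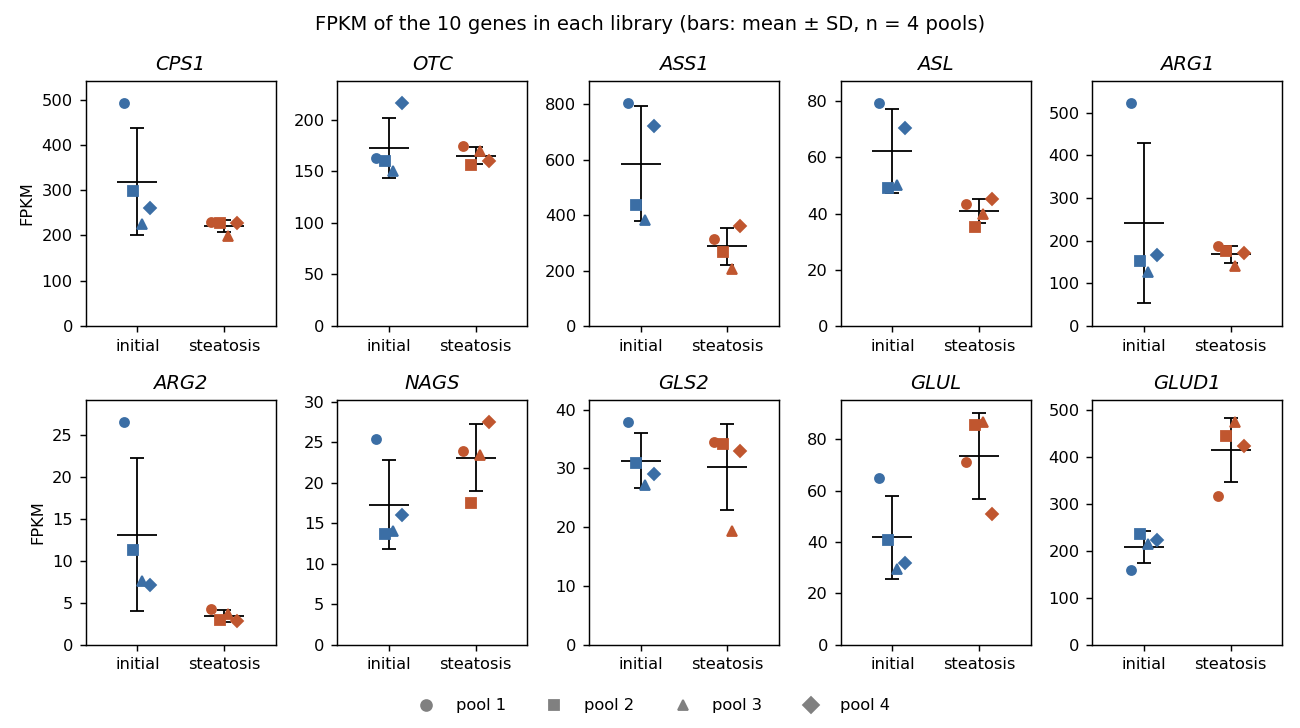
FPKM of each of the 10 genes in every library, one panel per gene, with the 4 pools of the initial state and the 4 of steatosis as points and the mean and SD of each group. The steatosis pools of ASS1, ASL and ARG2 lie below all initial pools, those of GLUD1 lie above all initial pools, and pool 1 of the initial state stands far above the others for ARG1.

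CPS1, carbamoyl-phosphate synthetase, takes up ammonia in the rate-controlling first step of the cycle. Its gene (gene ID 100157716) spans positions 113210038 to 113339086 of chromosome 15 in the Sscrofa11.1 build, and all coordinates given here are those of whole genes in that build. CPS1 was at 492, 299, 224 and 261 FPKM in pools 1 to 4 of the initial state and at 229, 227, 200 and 226 FPKM in those of steatosis. The initial pools spread widely and only the third lay within the range of the steatosis pools. The mean was 319 ± 119 FPKM (SD, n = 4) in the initial state and 221 ± 13.9 FPKM (SD, n = 4) in steatosis, lower in 4 of 4 pool numbers. The log2 fold change of -0.47 (SE 0.21, 95% interval -0.93 to -0.0042) did not pass (limma adjusted p = 0.117; exact permutation p = 0.114). Relative to the median ratio it was -0.74 and passed (limma adjusted p = 0.0393), and it also passed without pool 3 of the initial state (-0.62, limma adjusted p = 0.0476). Without pool 1 of the initial state, the library with muscle and stomach transcripts, it was -0.24 and did not pass (limma adjusted p = 0.156).

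OTC, ornithine transcarbamylase, joins carbamoyl phosphate to ornithine (gene ID 397438, chromosome X, 34322398 to 34391711). It was at 163, 161, 151 and 216 FPKM in the initial state and at 174, 157, 170 and 161 FPKM in steatosis. The 4 steatosis pools lay inside the range of the initial pools, and 2 pool numbers were higher and 2 lower. The log2 fold change was -0.05 (SE 0.12, 95% interval -0.31 to 0.21, limma adjusted p = 0.775), so that a change of either sign within that interval could not be told from the spread between pools. Its sign turned without pool 4 of the initial state (0.06) and after scaling to hepatocyte genes (0.02).

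ASS1, argininosuccinate synthase, brings in nitrogen from aspartate (gene ID 414411, chromosome 1, 270531434 to 270586364). It was the most abundant of the 10 transcripts in the initial state, at 804, 436, 383 and 723 FPKM, and was at 316, 269, 206 and 360 FPKM in steatosis. Every steatosis pool was below every initial pool. The mean fell from 587 ± 208 to 288 ± 66.0 FPKM (SD, n = 4 each), a change of -51.0%. Its log2 fold change was -0.99 (SE 0.26, 95% interval -1.56 to -0.41, limma adjusted p = 0.0189). The exact permutation p was 0.0286, the smallest that 4 against 4 pools can give (two-sided, as all here), and 4 of 4 pool numbers were lower. For every gene here whose groups do not overlap, both of these follow from the lack of overlap and add nothing to it. Without pool 4 of the initial state the value was -0.86 and just missed the threshold (limma adjusted p = 0.0504). Without pool 1 of the initial state it was -0.81 and passed (limma adjusted p = 0.0381).

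ASL, argininosuccinate lyase, splits the product of ASS1 into arginine and fumarate (gene ID 100517757, chromosome 3, 16637481 to 16646869). Its levels were 79.2, 49.2, 50.1 and 70.6 FPKM in the initial state and 43.4, 35.3, 39.8 and 45.0 FPKM in steatosis. Like those of ASS1, the groups did not overlap, although the lowest initial pool was only a few FPKM above the highest steatosis pool. ASL fell by 0.58 on the log2 scale (SE 0.16, limma adjusted p = 0.0263; exact permutation p = 0.0286) and was lower in 4 of 4 pool numbers. That call was lost without pool 4 of the initial state, pool 2 of steatosis or pool 3 of steatosis, with limma adjusted p-values of 0.0636, 0.0733 and 0.0596 and log2 fold changes of -0.51, -0.51 and -0.57. Without pool 1 of the initial state ASL was at -0.45 and only just passed (limma adjusted p = 0.0497).

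ARG1, liver arginase, releases urea from arginine and returns ornithine to the cycle (gene ID 397115, chromosome 1, 32006035 to 32028983). It was at 522, 152, 126 and 165 FPKM in the initial state and at 188, 175, 141 and 170 FPKM in steatosis. Apart from pool 1 of the initial state, which was over 3 times each of the others, the groups lay in one range. The log2 fold change was -0.27 (SE 0.38, 95% interval -1.11 to 0.57, limma adjusted p = 0.62) with all pools and 0.19 without pool 1 of the initial state (limma adjusted p = 0.302), and 3 pool numbers were higher and 1 was lower in steatosis. The negative sign of ARG1 thus rested on the library with muscle and stomach transcripts.

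Summed over the 5 enzymes of the cycle, the initial pools held 2060, 1096, 934 and 1437 FPKM and the steatosis pools 951, 862, 756 and 962 FPKM. The third initial pool lay inside the range of the steatosis pools, and ASS1 had the largest difference of means among the 5.

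ARG2, the mitochondrial arginase, is best known from tissues other than liver, where it supplies ornithine for proline and polyamines (gene ID 100155893, chromosome 7, 91343987 to 91385911). It was the least abundant of the 10 transcripts in both groups, at 26.6, 11.3, 7.55 and 7.07 FPKM in the initial state and 4.25, 2.88, 3.65 and 2.83 FPKM in steatosis. No steatosis pool reached the lowest initial pool. The mean fell from 13.1 ± 9.16 to 3.4 ± 0.678 FPKM (SD, n = 4 each), and the log2 fold change of -1.72 (SE 0.37, 95% interval -2.54 to -0.90, limma adjusted p = 0.00774; exact permutation p = 0.0286) was the largest of the 10 genes in size, at percentile 0.357 of all log2 fold changes. Without pool 1 of the initial state, the highest library, it was -1.31 with a limma adjusted p of 0.00218. Its adjusted p stayed under 0.05 in every alternative run, at 0.0245 or less, but ARG2 passed the study's limit of 0.01 no longer without pool 2 of the initial state or without any of the 4 steatosis pools, nor with no filter on low values or no mean-variance trend.

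NAGS, which makes the N-acetylglutamate that CPS1 needs to be active, was counted over 5 transcripts, of which 4 were new ones assembled by the authors (gene ID 100048960, chromosome 12, 19170398 to 19173968). It was at 25.5, 13.7, 14.1 and 16 FPKM in the initial state and at 23.9, 17.5, 23.4 and 27.5 FPKM in steatosis. Pool 1 of the initial state lay within the range of the steatosis pools, and the other 3 lay below all of them. The log2 fold change of 0.44 (SE 0.21, 95% interval -0.02 to 0.91, limma adjusted p = 0.133) did not pass with all pools, and passed without pool 1 of the initial state (0.64, limma adjusted p = 0.0147).

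**Figure D2:**
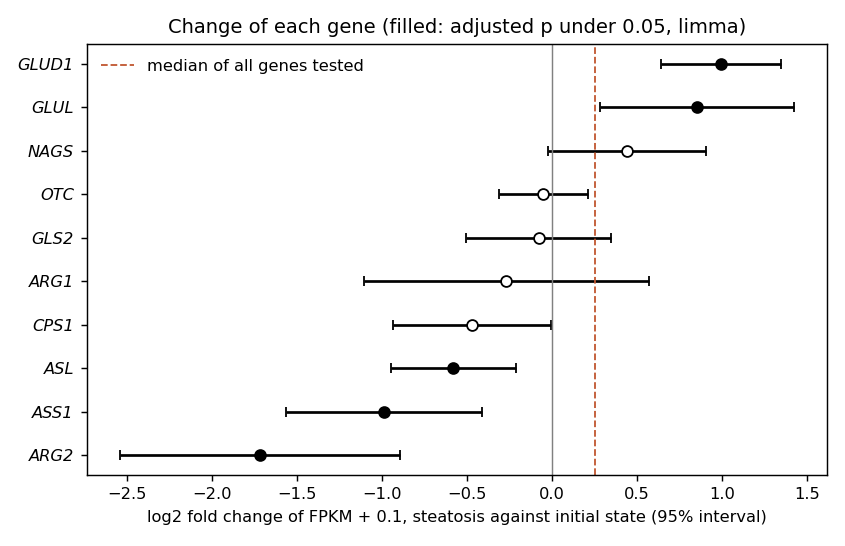
Log2 fold change of the 10 genes, steatosis minus initial state, on the log2(FPKM + 0.1) scale, with 95% intervals from limma, filled points for an adjusted p under 0.05 and a dashed line at the median of all genes tested, 0.25. The filled points of ARG2, ASS1 and ASL lie to the left of 0 and those of GLUL and GLUD1 to the right, while the interval of ARG1 spans 0.

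GLS2, the liver glutaminase, releases ammonia from glutamine beside CPS1 (gene ID 100738224, chromosome 5, 21806405 to 21820001). It was at 37.9, 31.0, 27.2 and 29.1 FPKM in the initial state and at 34.6, 34.1, 19.3 and 33.0 FPKM in steatosis. The groups overlapped, with the lowest library being pool 3 of steatosis. The log2 fold change was -0.08 (SE 0.19, 95% interval -0.51 to 0.35, limma adjusted p = 0.785), and its sign turned when pool 3 of steatosis (0.13) or pool 1 of the initial state (0.02) was left out.

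GLUL, glutamine synthetase, binds ammonia to glutamate in the ring of hepatocytes around the central vein (gene ID 396944, chromosome 9, 123751551 to 123762575). It was at 65.0, 40.6, 29.5 and 31.9 FPKM in the initial state and at 71.0, 85.4, 86.8 and 50.7 FPKM in steatosis. Pool 1 of the initial state was above pool 4 of steatosis, and the other 3 initial pools were below all steatosis pools. The mean rose from 41.8 ± 16.2 to 73.4 ± 16.8 FPKM (SD, n = 4 each), higher in 4 of 4 pool numbers, with a log2 fold change of 0.85 (SE 0.25, 95% interval 0.29 to 1.42, limma adjusted p = 0.0319; exact permutation p = 0.0571). Its call depended on the libraries used. Leaving out pool 1 of the initial state gave 1.09 (limma adjusted p = 0.00432), but the call was lost when any other initial pool or pool 1, 2 or 3 of steatosis was left out, with values of 0.71 to 0.86 and limma adjusted p-values of 0.0595 to 0.0829. Relative to the median ratio GLUL was higher by 0.58 (limma adjusted p = 0.144).

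GLUD1, glutamate dehydrogenase, interconverts glutamate with 2-oxoglutarate and free ammonia in the mitochondria (gene ID 100157162, chromosome 14, 87968850 to 88005375). It was at 160, 236, 215 and 223 FPKM in the initial state and at 317, 444, 475 and 424 FPKM in steatosis. Every steatosis pool was above every initial pool, and pool 1 was the lowest library of each group. The mean rose from 208 ± 33.4 to 415 ± 68.5 FPKM (SD, n = 4 each), a change of 99.4%, with a log2 fold change of 0.99 (SE 0.16, 95% interval 0.64 to 1.35, limma adjusted p = 0.00175; exact permutation p = 0.0286). GLUD1 stayed called under all 17 alternatives, with log2 fold changes of 0.72 to 1.12.

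The order of the levels differed between the groups. In the initial state the order by mean FPKM was ASS1, CPS1, ARG1, GLUD1, OTC, ASL, GLUL, GLS2, NAGS and ARG2, and among neighbours in it only OTC and ASL, and GLS2 and NAGS, had pools that did not overlap. In steatosis GLUD1 stood first, followed by ASS1, CPS1, ARG1, OTC, GLUL, ASL, GLS2, NAGS and ARG2. There, the pools of GLUD1 and ASS1, ASS1 and CPS1, ARG1 and OTC, and GLS2 and NAGS overlapped, while the other neighbours were apart.

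Ratios between 2 genes of the same library do not move with the scaling between libraries. GLUL over CPS1, the enzymes of the last and first hepatocytes to meet ammonia, was 0.132, 0.136, 0.131 and 0.122 in the initial pools and 0.310, 0.376, 0.434 and 0.224 in the steatosis pools. The initial pools lay close together in this ratio, pool 1 included, and below all steatosis pools. The log2 ratio was -2.94 ± 0.07 in the initial state and -1.62 ± 0.41 in steatosis (SD, n = 4 each), a difference of 1.32 (exact permutation p = 0.0286, adjusted over 5 ratios 0.0714). ARG2 over ARG1 was lower in steatosis by 1.48 on the log2 scale, with no overlap between the groups (exact permutation p = 0.0286, adjusted over 5 ratios 0.0714). After adjustment neither of these ratios passed 0.05. GLUL over GLS2 differed by 0.93 with overlapping pools (exact permutation p = 0.0571), GLS2 over CPS1 by 0.39 (exact permutation p = 0.114) and OTC over CPS1 by 0.42 (exact permutation p = 0.2).

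**Figure D3:**
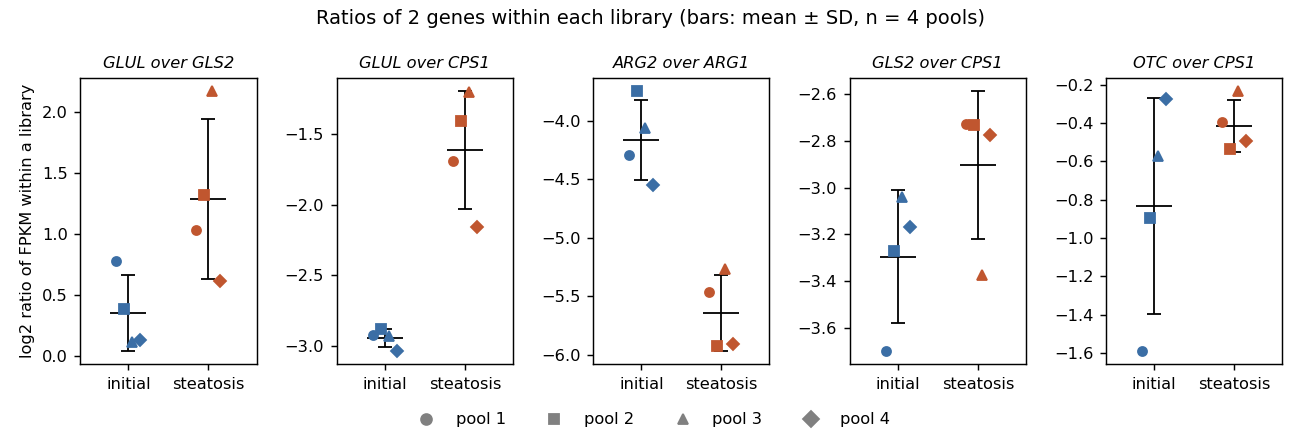
Log2 ratios of FPKM within each library for 5 pairs of genes, with the 4 pools and the mean and SD of each group. The initial pools of GLUL over CPS1 cluster around -2.94, below all steatosis pools, and ARG2 over ARG1 is lower in every steatosis pool than in any initial pool.

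Carriers around the cycle were described from a list of 23 transporters of ornithine, aspartate, glutamine, ammonia and urea, of which 18 were tested. In this list 3 were higher and 1 was lower, 16.7% and 5.56%, beside 26.7% and 2.28% of all genes. Relative to the median ratio 0 were higher and 5 lower by limma, and with a common upper quartile 1 was higher and 3 were lower, so the balance of this list turned with the scaling. SLC25A15, which returns ornithine to the mitochondria for OTC, was at 42.6, 31.3, 25.5 and 24.9 FPKM in the initial state and at 20.2, 21.2, 18.5 and 21.2 FPKM in steatosis. It thus fell without overlap between the groups (log2 fold change -0.58, limma adjusted p = 0.0246), although the call was lost without pool 1, 3 or 4 of steatosis, without pool 2 of the initial state and after scaling to hepatocyte genes, with limma adjusted p-values of 0.0503 to 0.0635. SLC25A13, the aspartate and glutamate carrier that feeds ASS1, was at 35.2 ± 5.11 and 31.4 ± 1.49 FPKM and did not pass (-0.15, limma adjusted p = 0.356).

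RHBG, an ammonia transporter of hepatocytes around the central vein, rose without overlap, from 15.8, 19.0, 18.5 and 17.5 FPKM to 28.9, 27.7, 34.4 and 20.5 FPKM (log2 fold change 0.63, limma adjusted p = 0.0116), but was not called relative to the median ratio (0.36, limma adjusted p = 0.129) or with a common upper quartile (0.41, limma adjusted p = 0.0818). SLC7A7, a subunit of a carrier that exports arginine and lysine, rose by 0.73 (16.2 ± 3.71 to 26.6 ± 3.75 FPKM, limma adjusted p = 0.0105) and relative to the median ratio by 0.45, which just missed the threshold (limma adjusted p = 0.0504). The third, SLC38A5, stayed under 1 FPKM on average in both groups. AQP9, a channel for glycerol and urea, was at 73.2 ± 4.94 and 84.7 ± 21.2 FPKM (0.18, limma adjusted p = 0.452), and the urea transporter SLC14A1, at 0.02 FPKM or less, was too low to be tested.

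**Figure D4:**
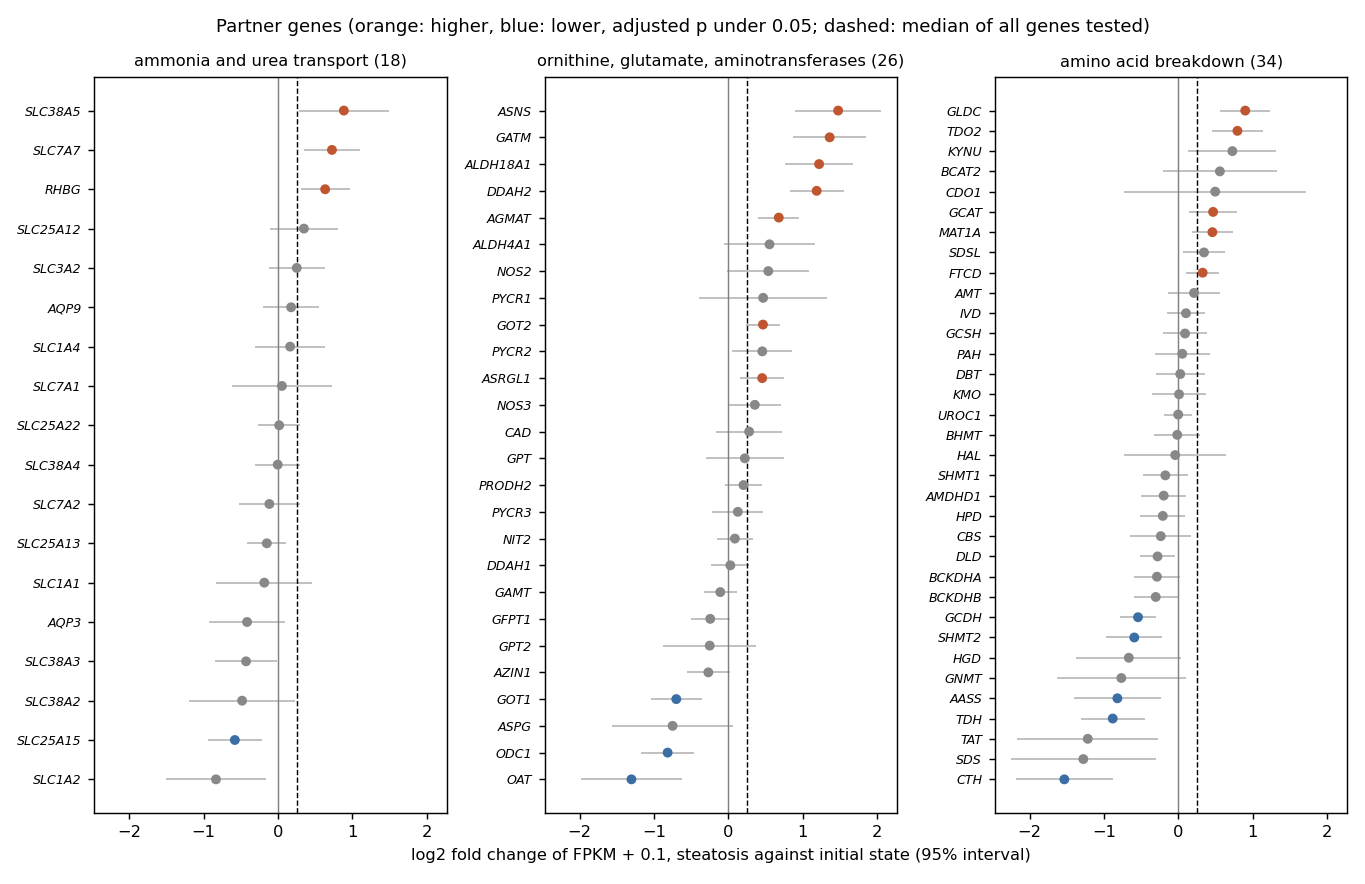
Log2 fold change, steatosis minus initial state, with 95% intervals from limma, for every tested gene of 3 lists: 18 transporters, 26 genes of ornithine, glutamate and amino group transfer, and 34 genes of amino acid breakdown. Higher and lower calls at an adjusted p under 0.05 are coloured, and the 7 higher genes of the middle list, with GATM and ASNS among the largest, stand beside 3 lower ones, OAT, GOT1 and ODC1.

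Of 26 tested genes of ornithine, glutamate and amino group transfer, 7 were higher and 3 lower. These are 26.9% and 11.5% of the list, beside 26.7% and 2.28% of all genes, so the share of higher genes was that of the background. OAT, ornithine aminotransferase, which removes ornithine from the cycle, fell from 37.2, 15.8, 18.3 and 12 FPKM to 9.82, 7.72, 6.00 and 7.45 FPKM, with no overlap (log2 fold change -1.30, limma adjusted p = 0.0113). GOT1, the cytosolic aspartate aminotransferase, fell from 55.5, 35.9, 32.3 and 40.2 FPKM to 23.9, 24.5, 23.3 and 27.1 FPKM, again with no overlap (-0.70, limma adjusted p = 0.00901). These enzymes link the ornithine and aspartate of the cycle to the glutamate pool. ODC1, the first enzyme of polyamine synthesis from ornithine, fell from 39.7 ± 7.94 to 22.4 ± 3.38 FPKM (-0.81, limma adjusted p = 0.00482).

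The largest increases among those genes included GATM, the first enzyme of creatine synthesis, which consumes arginine. It was at 448, 321, 690 and 360 FPKM in the initial state and at 1050, 965, 1165 and 1333 FPKM in steatosis, a log2 fold change of 1.37 (limma adjusted p = 0.00189) with no overlap. ASNS, asparagine synthetase, which takes its nitrogen from glutamine, rose from 1.64 ± 0.449 to 4.81 ± 1.61 FPKM (1.48, limma adjusted p = 0.00291). ALDH18A1, which starts proline and ornithine synthesis from glutamate, rose from 3.23 ± 0.699 to 7.75 ± 1.97 FPKM (1.22, limma adjusted p = 0.00222). GPT, alanine aminotransferase, had a log2 fold change of 0.22 and did not pass (limma adjusted p = 0.498). Relative to the median ratio, this list held 4 higher and 5 lower genes.

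Of 34 tested genes that break down amino acids, 5 were higher and 5 lower, 14.7% each, beside 26.7% and 2.28% of all genes. CTH, cystathionine gamma-lyase, which makes cysteine, fell from 90.8 ± 46.8 to 28.5 ± 2.2 FPKM (-1.53, limma adjusted p = 0.00424), with TDH, a threonine dehydrogenase, lower by 0.88 (limma adjusted p = 0.00853) and AASS, the first enzyme of lysine breakdown, lower by 0.82 (limma adjusted p = 0.0413). The call of AASS was lost in 8 alternatives, among them those without pool 4 of the initial state or any steatosis pool. GLDC, the glycine-cleaving decarboxylase that releases ammonia, rose by 0.90 (13.6 ± 1.96 to 25.6 ± 4.41 FPKM, limma adjusted p = 0.0023), and TDO2, which starts tryptophan breakdown, by 0.79 (limma adjusted p = 0.00469). GCAT, another enzyme of threonine breakdown, rose by 0.47 with overlapping pools (limma adjusted p = 0.0351), a call lost relative to the median ratio (0.20, limma adjusted p = 0.467) and without any single library other than pool 4 of the initial state. These counts moved with the settings. Lower genes numbered 8 when the pool number entered as a block, and relative to the median ratio 2 were higher and 11 lower. Without pool 2 or 4 of steatosis 2 genes were higher, and without its pool 1 or 4 only 3 were lower.

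The 10 genes sit in different zones of the liver lobule, so other genes of those zones were counted beside them. Of 17 pericentral genes, RHBG and OAT among them, 7 were higher, led by CYP7A1, the rate-limiting enzyme of bile acid synthesis (1.99, limma adjusted p = 0.00362), and by ZNRF3 and RNF43, membrane regulators of Wnt signalling (1.16 and 1.12). Another 8 did not pass, among them AXIN2, LGR5, TBX3 and NOTUM (0.19, 0.03, 0.11 and -0.11, limma adjusted p = 0.526 to 0.937). In that list 2 genes were lower, OAT and LHPP. Higher genes made up 41.2% and lower ones 11.8% of the list, beside 26.7% and 2.28% of all genes. Relative to the median ratio 4 pericentral genes were higher. Of 14 tested periportal genes, with GLS2 among them, 4 were lower, including APOA4, an apolipoprotein (-1.82, limma adjusted p = 0.00291), PCK1 (-1.03) and G6PC (-0.91), both enzymes of gluconeogenesis. PIGR, the receptor that carries immunoglobulins into bile, and CDH1, E-cadherin, both listed as periportal, were higher by 2.53 and 0.87. Lower genes made up 28.6% and higher ones 14.3% of this list, beside the same 2.28% and 26.7%. Without pool 1, 2 or 3 of the initial state, or pool 3 or 4 of steatosis, 2 periportal genes were lower, and in each of these G6PC lost its call.

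Markers of cell types moved beside these results. Beside the 26.7% higher and 2.28% lower of all genes, 4 of 17 tested hepatocyte genes, CPS1 included in the list, were lower (23.5%) and 1 was higher (5.88%). The lower ones included the fibrinogen chains FGG, FGA and FGB (-0.51, -0.50 and -0.44) and the higher one was TF, transferrin (0.61), which was not called relative to the median ratio (0.34, limma adjusted p = 0.248). The symbol TF was also listed for another gene, and the entry described as transferrin alone was used. ALB was at 50410 FPKM on average in the initial state and 37500 in steatosis (-0.40, limma adjusted p = 0.168). The summed hepatocyte markers lay between 83950 and 116900 FPKM before the diet and between 75110 and 85960 FPKM after it. Of 12 macrophage genes, 9 were higher (75%), led by MARCO, CD68 and TYROBP (3.33, 2.01 and 1.44), and their sum lay between 922 and 1274 FPKM before and between 1431 and 1630 FPKM after it. The CD68 entry counted here was not the one the paper reported, which had lower levels and a larger fold change. Bile duct markers, summed over 6 genes, lay between 10.1 and 24.9 FPKM before the diet and between 93.3 and 234 FPKM after it, with 1 of 5 tested genes higher (20%). That gene was SPP1, at 4.16 to 9.64 FPKM before and 74.4 to 226.5 FPKM after it (4.54, limma adjusted p = 5.6e-05), and it made up most of the later sum. KRT19, EPCAM, SOX9 and CFTR did not pass (limma adjusted p = 0.0584 to 0.827). Endothelial and stellate cell genes were higher in 4 of 12 (33.3%), near the share of all genes, and in 2 relative to the median ratio. T and B cell genes were higher in 1 and lower in 2 of 9 (22.2% lower). Neutrophil genes were higher in 1 of 6 and adipose tissue genes in 2 of 6. These last were FABP4 and LPL, also expressed by macrophages, at 44.7 and 6.59 FPKM in pool 1 of the initial state and at no more than 3.74 and 0.27 FPKM in the other 3 initial pools. Further, 1 of 2 tested muscle genes was lower. Of 4 red blood cell genes limma called 0, with 1 lower at an unadjusted p under 0.05, and the 1 stomach gene tested did not pass. The part of these shifts in the levels of the 10 genes was not tested. After scaling each library by its hepatocyte genes other than CPS1 and TAT, ASS1, ASL, ARG2, GLUL and GLUD1 were still called in the same direction.

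Genes most like the 3 members with the largest fold changes were sought among 10844 known genes by the root mean square difference of their centred log2 values over the 8 libraries. For ARG2 they were NANOS1 (0.187), NPC1L1, an intestinal and hepatic cholesterol transporter (0.315), and INSIG1, a sterol-regulated inhibitor of cholesterol synthesis (0.343). For GLUD1 they were GLDC (0.0823), TNFSF13B (0.111) and PTAFR (0.112). For ASS1 they were AGXT (0.212), KYAT1 (0.25) and HGD (0.26), which act on glyoxylate, kynurenine and homogentisate. Since all 8 points share the split into groups, these values describe a likeness of pattern.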

How the data were processed

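Poly-A mRNA of the 8 pools was sequenced by the authors on a DNBseq platform as paired reads of 100 bp. Per the labels and methods, the authors aligned reads with HISAT2 2.0.4 to the Sscrofa11.1 genome, assembled new transcripts with StringTie, aligned to the transcripts with Bowtie2 2.2.5 and estimated levels with RSEM 1.2.12, and the deposited unit is FPKM per gene and pool. Raw read counts were not analysed here. The estimate of depth used the FPKM steps between 0.1 and 0.5 FPKM, within a factor of 1.25, and could not resolve differences in depth. RSEM's assignment of reads that map to several genes can divide reads between similar genes. Other deposited tables hold the authors' own pairwise comparisons (fold changes and p-values) and were not used.

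Groups were taken from the labels. The 13175 genes that reached 0.3 FPKM in 4 or more of the 8 libraries were tested on log2(FPKM + 0.1) with limma 3.58.1 in R 4.3.3 (empirical Bayes with trend, no term but the group), with p-values adjusted after Benjamini-Hochberg. Fold changes are therefore on the log2(FPKM + 0.1) scale and understate changes of low genes. Single values and 5 ratios were compared by exact two-sided permutation of 4 against 4 pools, which cannot give a p under 0.0286. Figures and tests used Python 3.11.15 with scipy 1.17.1. All 17778 known genes had an identifier in the RefSeq gene table. The fit was tested on simulated data.

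The pool numbers were checked for pairing: deviations of same-numbered pools from their group means correlated at 0.16, 0.35, 0.32 and 0.25 over genes for pools 1 to 4. Those of pools with unlike numbers correlated at -0.2 to 0.03. The numbers were therefore taken as pairs in the counts of pool numbers and in alternative runs, while the main tests were unpaired. Neither the labels nor the methods say that a number marks the same 2 pigs. A fit with the pool number as a replicate block was run as an alternative beside other scalings, filters, pseudocounts, no trend and leaving out each library in turn.

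All 10 genes were named in every library. Of most other lists up to 3 genes per direction were named. These had the largest fold changes among those past the threshold and with a mean of at least 1 FPKM in a group. SLC25A15, SLC25A13, RHBG, SLC14A1, AQP9, OAT, GOT1, GPT and ALB were named in any case. For neutrophils, for endothelium and stellate cells, and for T and B cells only counts were given. A gene of the ornithine and glutamate list is not reported here and was left out of its counts. The members and lists were chosen with earlier results of these data known.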

Additional observations from a re-analysis of the deposited data

Results flagged for a closer look

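In 30 groups of 4 pools tested for a pool far from the others, 4 were flagged, where chance alone flags about 1 in 20. The groups were not independent, since the ratios were built from FPKM values that were also tested singly. The number of flags therefore cannot be weighed against that rate. ARG1 in pool 1 of the initial state was at 522 FPKM, against 152, 126 and 165 FPKM in the other pools of its group, and the gap to the nearest was 0.901 of the whole range. This is the library with the muscle and stomach transcripts, whose part in the ARG1 level was not tested.

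The other 3 values came from pool 3 of steatosis. CPS1 was at 199.8 FPKM there, against 229, 227 and 226 FPKM, with a gap of 0.906 of the range, a distance that is small in FPKM because the other pools lay close together. GLS2 was at 19.3 FPKM, against 34.6, 34.1 and 33.0 FPKM, with a gap of 0.9 of the range. The log2 ratio of GLS2 over CPS1 was -3.37, against -2.73, -2.74 and -2.78, with a gap of 0.926 of the range, so GLS2 was low in this pool beyond what CPS1 was.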

How the results depend on the processing

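Of 170 checks of the 10 genes under 17 alternatives each, 149 kept direction and side of the threshold. ARG2 and GLUD1 kept both in all of theirs. Signs turned for OTC (0.02 with hepatocyte scaling, 0.06 without initial pool 4), ARG1 (0.19 without initial pool 1) and GLS2 (0.02 without initial pool 1, 0.13 without steatosis pool 3). Over the fits without 1 library each, the log2 fold change spanned -0.11 to 0.06 for OTC, -0.49 to 0.19 for ARG1 and -0.15 to 0.13 for GLS2. The cause of these and of the changes below was not tested.

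With the pool number as a replicate block, the calls of the 10 genes did not change, and ASS1 had a limma adjusted p of 0.00151. The block moved counts for amino acid breakdown (8 lower), hepatocytes (2 higher), bile duct (2 higher), red blood cells and adipose tissue (1 lower each) and T and B cells (1 lower). Exact permutation by sign flips of the pairs gave 1.32 for GLUL over CPS1 and -1.48 for ARG2 over ARG1 with p = 0.125, the smallest that 4 pairs allow.

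Relative to the median ratio and the upper quartile respectively, counts were 1 and 1 for higher members, and 0 and 1 higher and 5 and 3 lower for transport. They were 4 and 5 higher and 5 and 5 lower for ornithine and glutamate, and 2 and 2 higher and 11 and 10 lower for breakdown. Regulators had 0 and 0 higher, pericentral genes 4 and 4 higher, and hepatocytes 0 and 0 higher, with 7 lower under the median ratio. Macrophages, red blood cells and adipose tissue had 1 and 1 lower each, and endothelium and stellate cells 2 and 2 higher. Under the median ratio 5 members were lower without overlap. No share over all genes was computed for that count, and 9.74% of all genes were then called lower. Hepatocyte scaling gave 1 member past the study's limits as higher, as did a common sum, with 0 transport genes lower, 1 regulator lower, 3 hepatocyte genes higher and 2 bile duct genes higher.

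With no filter, 1 member was higher (GLUL at 0.0506), 0 were lower by the study's limits, as with no trend, regulators were 1 higher and 1 lower, again as with no trend, periportal and hepatocyte genes were 2 lower each, neutrophils 3 higher and T and B cells 1 lower. A filter of 1 FPKM in all libraries left 0 neutrophil genes higher, 0 muscle genes lower, 1 adipose gene higher and 0 T and B genes lower. A pseudocount of 1 gave 1 regulator lower and 0 muscle genes lower.

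With any single library dropped, there were 1 to 3 higher and 1 to 4 lower members, beside 17.6 to 25.7% and 1.31 to 3% of all genes. By the study's limits 0 to 1 were higher and 0 to 2 lower, and 1 to 3 were higher without overlap. For these last counts no shares over all genes were computed. Counts ranged from 0 to 2 for lower transport genes, 2 to 5 higher and 3 to 7 lower for breakdown, 0 to 3 higher and 1 to 2 lower for regulators, 2 to 5 lower for periportal genes, 1 to 2 higher for hepatocytes, 1 to 3 higher for bile duct, 0 to 3 lower for red blood cells, 0 to 1 lower for adipose tissue and 1 to 2 lower for T and B cells. GLUL over GLS2 ranged from 0.64 to 1.16 and OTC over CPS1 from 0.17 to 0.61. With 4 pools a group, a change of OTC or GLS2 within its 95% interval could not be told from 0.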

Other observations

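Regulators of the urea cycle genes were counted from a list of 18 transcription factors, receptors and cofactors, of which 2 were higher and 2 lower, beside 26.7% and 2.28% of all genes. FOXA2, a liver transcription factor, fell from 15.9 ± 3.23 to 7.47 ± 0.733 FPKM (log2 fold change -1.07, limma adjusted p = 0.000742), with no overlap between the groups. PPARGC1A, a coactivator of fasting genes, fell from 3.71 ± 2.2 to 1.66 ± 0.296 FPKM (-0.98, limma adjusted p = 0.0422). Its call was lost in 10 of 17 alternatives, among them leaving out pool 2 or 3 of the initial state or any steatosis pool, with limma adjusted p-values of 0.051 to 0.097. CREB3L3, a liver transcription factor held in the endoplasmic reticulum, rose by 0.51 (limma adjusted p = 0.0292), and FGFR4, the hepatic receptor for the bile acid hormone FGF19, by 0.49 with overlapping pools (limma adjusted p = 0.0374). Both were not called relative to the median ratio (0.24 and 0.22, limma adjusted p = 0.307 and 0.374), with a common upper quartile (limma adjusted p = 0.189 and 0.242) or without pool 4 of steatosis. CREB3L3 also lost its call without pool 2 of steatosis, and FGFR4 without pool 1 or 2 of the initial state, or pool 1 or 3 of steatosis, and with no filter or no trend.

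The initial pools were more variable than the steatosis pools for 8 of the 10 genes by coefficient of variation, beside 74% of all genes tested, and for 6 of the 10 without pool 1 of the initial state, beside 68.5%. The coefficient of ARG1 in the initial state was 77.8% with that pool and 13.4% without it. The genes nearest to CPS1 in pattern were DDX56, SLC25A15 and NOB1. Their root mean square log2 differences over the 8 libraries were 0.0915, 0.121 and 0.123. CPS1 was not among the members with the largest fold changes, whose nearest genes are given above. It was singled out here for SLC25A15, the ornithine carrier, after the values were seen. All 8 points share the split into groups, so these values describe a likeness of pattern only.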
